A study of Mus musculus with 4 samples.

Results

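The regions described here are the ATAC-seq peaks of the 4 large zinc finger gene clusters of human chromosome 19. ATAC-seq marks open chromatin, because the Tn5 transposase cuts and tags DNA that is accessible. Members were the peaks whose centre lay in 1 of 4 windows on GRCh38, which are called clusters A to D in the order of the chromosome. Cluster A ran from 19.7 to 24.2 Mb, cluster B from 36.2 to 38 Mb, cluster C from 43.8 to 44.6 Mb and cluster D from 51.9 to 58.617 Mb. They held 605 of the 48751 peaks of the list, and 18.9% of the 3194 peaks of chromosome 19, on 13.8 Mb or 23.6% of its length. Cluster A held 48 members, cluster B 54, cluster C 26 and cluster D 477.

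The cells were HEK293, an established human embryonic kidney line. Of the 4 libraries, 2 came from cells given a TRAFTAC against NFkB and 2 from cells given a scrambled TRAFTAC. A TRAFTAC is a DNA-RNA hybrid whose DNA carries the binding motif of a transcription factor and whose RNA recruits a dCas9 fused to HaloTag7. All cells were transfected for 6 h with 1 μg/mL of the dCas9 fusion plasmid and 25 nM TRAFTAC, and then kept for 19 h with 5 ng/mL TNF-α and 25 μM HP14, a PROTAC that binds the HaloTag (the treatment labels also name DMSO, its solvent, without saying for which samples). Before harvest all cells were treated with DNase, at 200 units/mL for 30 min. The labels do not say whether the libraries of a group came from separate cultures. The peaks were called on all libraries merged, so each value below is a value of both TRAFTACs together, with no replicate error and no contrast between them. The labels give the mouse as the organism, whereas HEK293 is human and the list holds chromosomes 20, 21 and 22, which the mouse lacks.

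KRAB zinc finger genes encode the largest family of human transcription factors. Their tandem C2H2 fingers bind DNA, many of them within transposable elements, and the KRAB domain recruits the corepressor TRIM28 (KAP1), through which histone methylation is deposited and chromatin compacted. The family grew by repeated tandem duplication, so that its genes stand in rows on chromosome 19, where gene bodies are known to carry repressive histone marks while many promoters stay open. The window of cluster D is also known to hold genes of other families, among them receptors of leukocytes. The gene content of the windows was not checked here and no peak was assigned to a gene, since an annotation and a sequence of GRCh38 were not used here, so no sequence of a peak is shown.

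The clusters did not share 1 density of called peaks. Peaks were sparse in clusters A to C and dense in cluster D. Cluster A had 10.7 peaks per Mb (exact 95% Poisson interval 7.86 to 14.1). Cluster B had 30.0 per Mb (22.5 to 39.1) and cluster C 32.5 per Mb (21.2 to 47.6). Cluster D had 71.0 per Mb (64.8 to 77.7), and the rest of chromosome 19 had 57.8 per Mb (55.6 to 60.1). All intervals here cover the error of counting alone. They treat neighbouring peaks as independent, which they need not be.

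As a ratio to the rest of the chromosome, with an exact conditional 95% interval, the density was 0.185 in cluster A (0.136 to 0.245), 0.519 in cluster B (0.389 to 0.679) and 0.562 in cluster C (0.367 to 0.826). It was 1.23 in cluster D (1.11 to 1.36), the only cluster above the rest. With peaks restricted to q-values at or beyond 5 on the −log10 scale, the ratio of cluster D was 1.06 (0.941 to 1.18), and without the stretch from 54 to 56 Mb it was 1.03 (0.905 to 1.16), neither of which differed detectably from the rest. Clusters B and C did not differ detectably from each other, with a ratio of 0.923 (0.568 to 1.54). Clusters A and B differed, at 0.356 (0.236 to 0.534). Peaks covered 0.729% of cluster A, 2.38% of cluster B, 2.57% of cluster C and 5.20% of cluster D, beside 4.02% of the rest.

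The peaks that were present in clusters A to C were strong. The peak caller gives the fold enrichment of each peak, the fragments stacked at its summit over a local background. Its median was 14.2 in cluster A (95% order-statistic interval 8.06 to 15.9), 11.7 in cluster B (5.04 to 13.5) and 14.3 in cluster C (12.8 to 15.4). In cluster D it was 4.07 (3.52 to 4.69) and in the rest of chromosome 19 it was 5.33 (5.18 to 5.48). Over chromosomes 1 to 22 and X it was 5.63. The intervals of clusters A and C lie above that of the rest, whereas the interval of cluster B reaches down into it and that of cluster D lies below it.

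**Figure D1:**
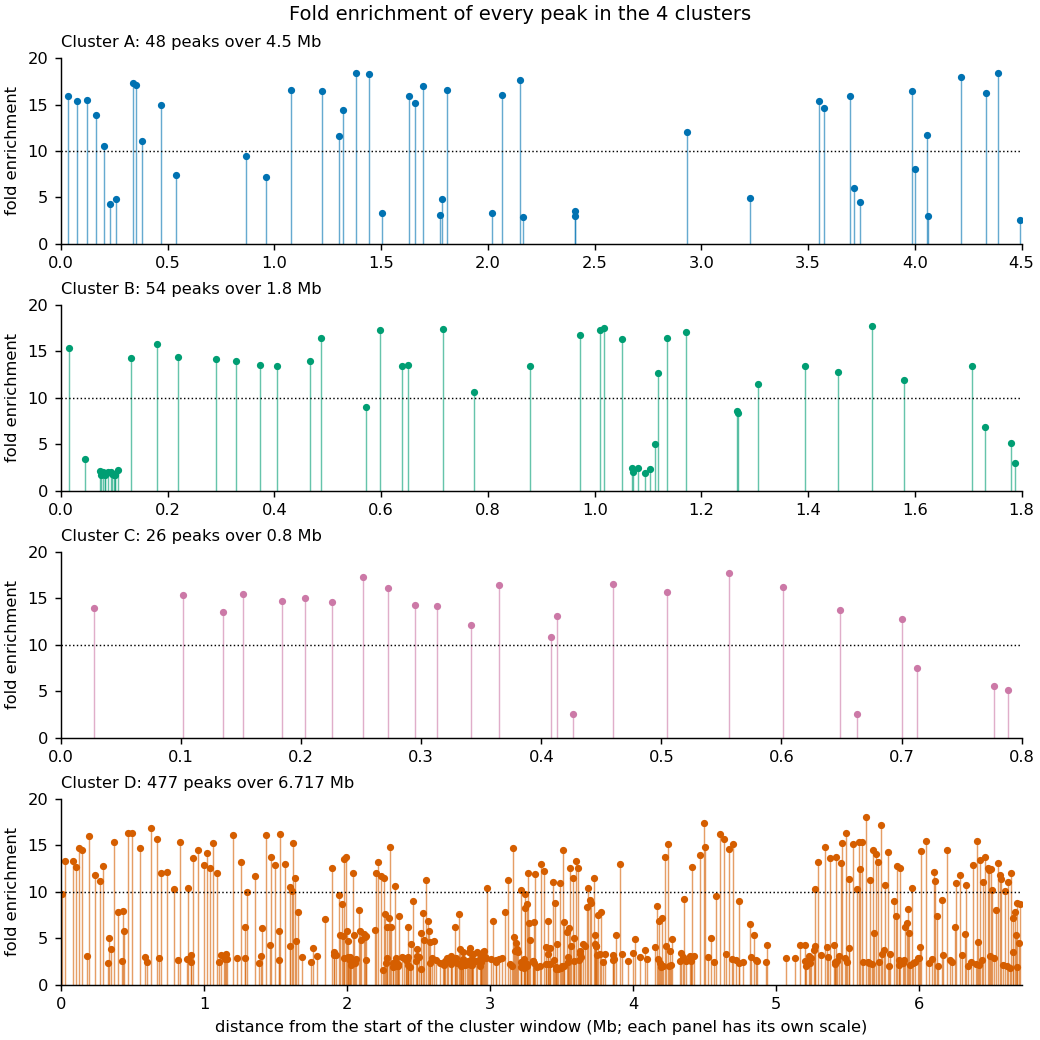
Fold enrichment (y axis) of each peak against the distance of its centre from the start of its window in Mb (x axis, a separate scale in each panel), 1 panel a cluster, with a dotted line at a fold of 10. Clusters A, B and C show tall peaks between 10 and 18.4 with wide empty gaps, cluster B also 2 runs of low peaks, and cluster D tall peaks standing among many low ones.

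Fold enrichment fell into a high and a low class in clusters A to C. Of their 128 peaks, 67 had a fold of at least 13 and 13 a fold from 10 to under 13. Only 14 lay from 5 to under 10, which is 10.9% (95% Wilson interval 6.63% to 17.5%), and 34 lay under 5. In the rest of chromosome 19, 35.8% of the peaks lay from 5 to under 10 (33.9% to 37.6%). In cluster D this share was 17.4% (14.3% to 21.1%), also below the rest, and its interval overlaps that of clusters A to C. A thin middle was thus not particular to clusters A to C.

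A fold of at least 10, a bound chosen after the values were seen, was reached by 21.8% of all peaks of the list and by 18.0% of the rest of chromosome 19 (16.6% to 19.6%). It was reached by 30 of the 48 peaks of cluster A, or 62.5% (48.4% to 74.8%), by 29 of the 54 of cluster B, or 53.7% (40.6% to 66.3%), and by 21 of the 26 of cluster C, or 80.8% (62.1% to 91.5%). In cluster D the count was 126 of 477, or 26.4% (22.7% to 30.5%). The share of clusters A to C together exceeded that of the rest by 44.5 percentage points (35.7 to 52.5), and that of cluster D exceeded it by 8.38 points (4.32 to 12.8). The Newcombe interval of the difference excluded 0 in each of the 4 clusters. Clusters A and B could not be told apart in this share (difference 8.80 points, −10.1 to 26.8).

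**Figure D2:**
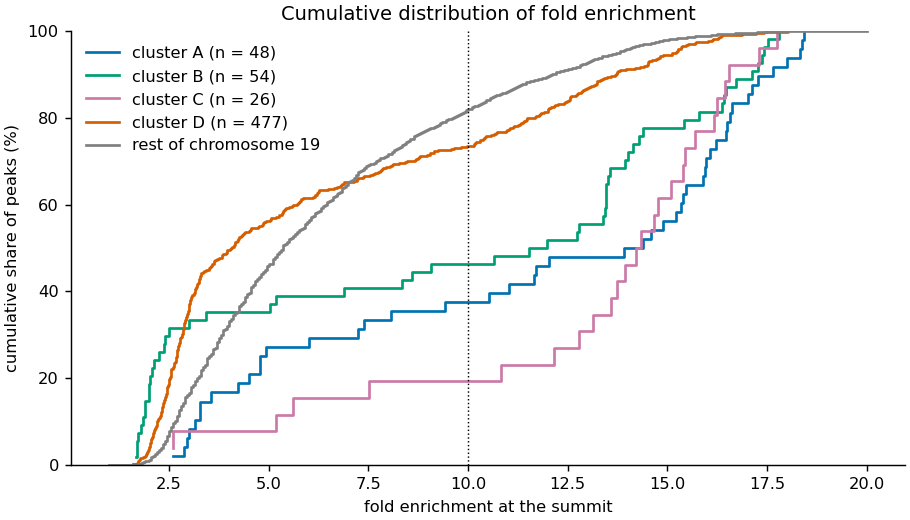
Cumulative share of peaks in percent (y axis) against fold enrichment at the summit (x axis) for each cluster and for the rest of chromosome 19, with a dotted line at a fold of 10. The lines of clusters A to C stay flat through the middle of the scale and climb between 13 and 18, whereas that of the rest passes 50% near its median of 5.33.

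The sparseness of clusters A to C lay mostly in the weaker peaks. Peaks with a fold under 10 numbered 18 in cluster A, 25 in cluster B and 5 in cluster C. Together this is 6.76 per Mb (4.98 to 8.96), against 47.4 per Mb in the rest of the chromosome (45.4 to 49.4), a density 7.01-fold lower (5.27 to 9.53). Peaks with a fold of at least 10 numbered 80, or 11.3 per Mb (8.93 to 14.0), against 10.4 per Mb in the rest, a ratio of 1.08 (0.842 to 1.37). The density of the stronger peaks thus did not differ detectably from the rest at this bound, but the ratio moved with it, to 0.729 for a fold of at least 8 (0.575 to 0.913) and to 1.70 for a fold of at least 12 (1.29 to 2.21). The lack of weaker peaks did not, and was 6.83-fold and 6.57-fold at those bounds.

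Among the 3 sparse clusters the stronger peaks were unevenly spread. Their density was 6.67 per Mb in cluster A (4.5 to 9.52), 16.1 in cluster B (10.8 to 23.1) and 26.3 in cluster C (16.2 to 40.1). Relative to the rest of the chromosome, cluster A was at 0.639 (0.427 to 0.925), cluster B at 1.55 (1.02 to 2.25) and cluster C at 2.52 (1.54 to 3.89). These ratios depended on the measure of strength. Counted instead by at least 100 fragments at the summit (the pileup), they were 0.254 in cluster A (0.165 to 0.375), 0.733 in cluster B (0.492 to 1.05) and 1.10 in cluster C (0.669 to 1.71), so that clusters B and C no longer differed detectably from the rest. Cluster D was at 1.80 by fold (1.47 to 2.19) and at 1.45 by pileup (1.25 to 1.68). By fold, it did not differ detectably from cluster B (cluster B over D 0.859, 0.553 to 1.29) or cluster C (cluster C over D 1.40, 0.837 to 2.23).

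**Figure D3:**
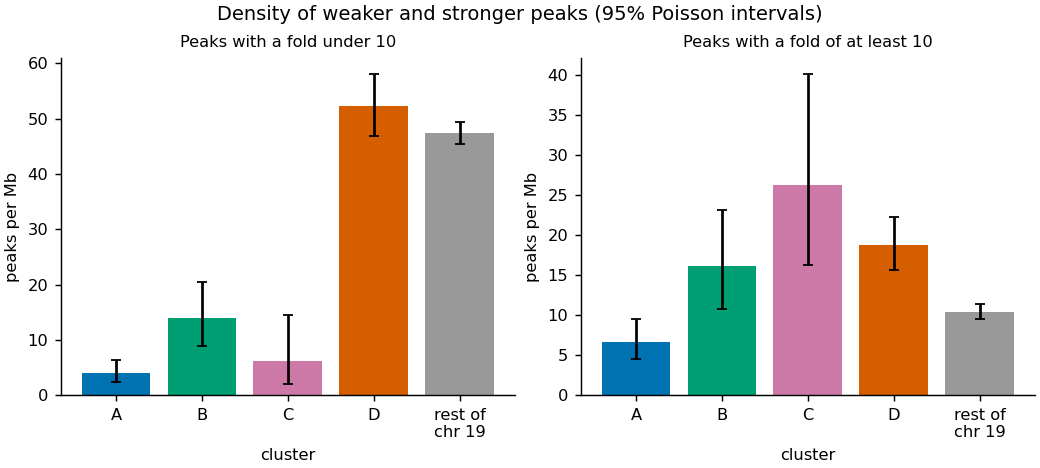
Peaks per Mb (y axes) with a fold under 10 (left) and of at least 10 (right) in each cluster and in the rest of chromosome 19. Bars are densities and error bars exact 95% Poisson intervals. Weaker peaks are rare in A, B and C and common in D and the rest, at 52.3 and 47.4 per Mb, whereas stronger peaks are densest in C, at 26.3 per Mb.

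Fold enrichment depends on the background as well as on the summit. The number of fragments at the summit (the summit pileup, summed over all libraries) and the local background were therefore recovered from the fold and the p-value for all 605 members. The median pileup was 169 in cluster A (58.0 to 261), 145 in cluster B (87.0 to 209), 174 in cluster C (111 to 202), 81.0 in cluster D (67.0 to 110) and 70.0 in the rest of chromosome 19 (66.0 to 75). A pileup of at least 100 fragments was reached by 59.4% of the peaks of clusters A to C (50.7% to 67.5%) and by 39.3% of the rest, a difference of 20.1 points (11.2 to 28.4). By this measure the stronger peaks of clusters A to C were less dense than those of the rest, with a ratio of 0.471 (0.368 to 0.595), and the weaker ones 4.79-fold less dense (3.63 to 6.44). The higher share of strong peaks in clusters A to C was thus seen by both measures, whereas the density of strong peaks was lower than in the rest by pileup and for a fold of at least 8, and higher for a fold of at least 12.

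The strong peaks of clusters A to C stood over a lower background. Among peaks with a fold of at least 10, the median background was 14.6 fragments in clusters A to C (12.5 to 16.2), 22.3 in the rest (21.1 to 24.5) and 41.2 in cluster D (34.5 to 46.1). The median pileup of these peaks was 235 (209 to 265), 301 (276 to 329) and 565 (483 to 680). Their fold was higher in clusters A to C, at 15.4 (14.3 to 16), than in the rest, at 12.4 (12.1 to 12.8), and in cluster D, at 13 (12.6 to 13.4). The background is taken around each peak and so can count fragments of the peak itself and of neighbouring peaks, which were rare in clusters A to C. The peak at chr19:19776072-19777033, with its nearest neighbouring centre 43.5 kb away, had a background of 46.8 and a pileup of 732. Background and pileup are thus not independent measures. The parts of the spacing and of the pileup in the background and the fold were not tested.

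**Figure D4:**
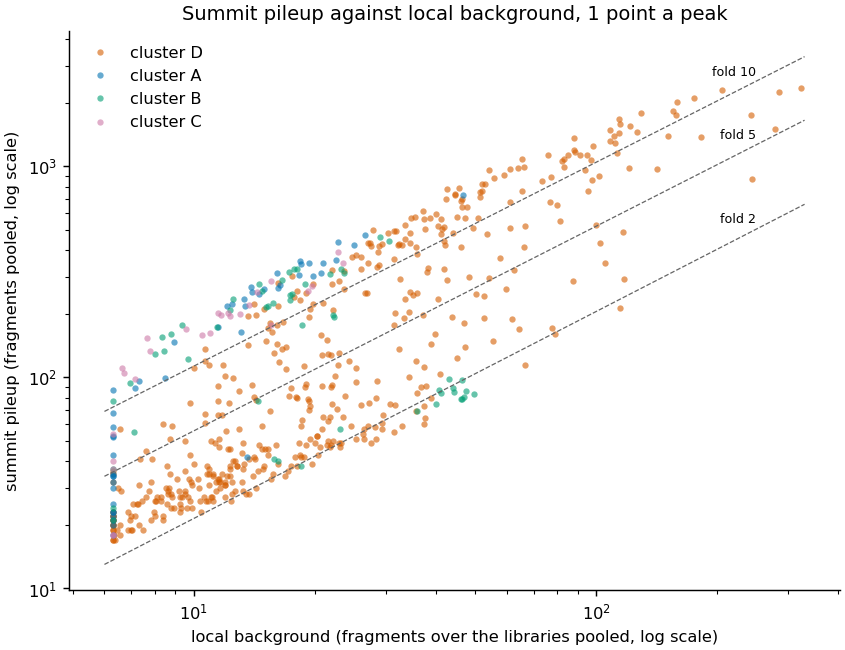
Summit pileup (y axis, log scale) against local background (x axis, log scale), both in fragments over all libraries pooled, for each of the 605 peaks, with dashed lines at folds of 2, 5 and 10. Peaks of clusters A to C lie mostly above the line of 10 at pileups below 500, and peaks of cluster D reach a pileup of 2342.

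In cluster A, strong peaks were separated by long stretches without any. Neighbouring centres were a median of 59.8 kb apart (38 to 84.7), and 14 of the 47 distances exceeded 100 kb. Of 45 bins of 100 kb, 16 held no peak. The longest stretch without a peak ran over 527 kb from 22107369 to 22633952, and the strong peaks on its sides were 782 kb apart, with 3 weaker peaks between them. No bin held more than 3 peaks, a number reached in 4 bins (from 19.9, 20, 21 and 21.3 Mb).

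The strongest peak of cluster A by q-value lay at chr19:19776072-19777033, near its start, with a −log10 q-value of 575, a fold of 15.4 and a pileup of 732, the only pileup of clusters A to C above 500. The next were at chr19:20051866-20052726, with a −log10 q-value of 395 and a fold of 17.1, and at chr19:24086968-24087620, with 380 and a fold of 18.4. The peaks at chr19:21081991-21082630 and chr19:21141809-21142475 had the other high folds of the cluster, 18.4 and 18.3, on widths of only 640 and 667 bp. The widest peak, 1235 bp at chr19:22926632-22927866, was weak, with a fold of 4.92 and a pileup of 35. The widest peak was thus not a strong one. As classes, the strong peaks of this cluster were the wider. Median width was 796 bp for a fold of at least 10 (682 to 902) and 441.5 bp for a fold under 10 (304 to 584).

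In whole bins of 1 Mb, cluster A held the highest median folds among the bins that could be ranked. Among 1765 bins of chromosomes 1 to 22 and X with at least 9 peaks, the bin from 21 Mb ranked 1, with a median fold of 15.2 over 15 peaks, and the bin from 20 Mb ranked 2, with 14.9 over 9 peaks. The bin from 22 Mb, also in cluster A, was not ranked, since it held only 4 peaks, with folds of 3.01, 3.55, 4.92 and 12. The bin from 23 Mb ranked 7, with 13.1 over 10 peaks. The bin from 37 Mb, which lies in cluster B, ranked 13, with 12 over 25 peaks. The bin from 36 Mb, most of which lies in cluster B, ranked 88, with 9.51 over 39 peaks. The bin from 52 Mb in cluster D ranked 12, with 12.1 over 40 peaks. The bin from 44 Mb, part of which lies in cluster C, ranked 329, with 7.52 over 49 peaks. At the other end, the bin from 54 Mb in cluster D ranked 1760, with 2.89 over 101 peaks. The further bins of cluster D, from 53, 55, 56, 57 and 58 Mb, ranked 1410, 1688, 1751, 1669 and 244. These ranks are a description of bins with few peaks. The minimum of 9 is the count of the bin from 20 Mb, which a higher minimum would leave unranked.

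Cluster B combined strong single peaks with runs of weak ones. Its 29 peaks with a fold of at least 10 were a median of 58.5 kb apart (39.1 to 65.9) and had folds from 10.7 to 17.8. The highest −log10 q-values were 367 at chr19:36214313-36215436, 337 at chr19:36488959-36490101 and 280 at chr19:37217718-37218639. The highest folds were 17.8 at chr19:37719152-37720029, 17.5 at the last of those and 17.4 at chr19:36915928-36916858. The widest peak, 2056 bp at chr19:36771343-36773398, had a fold of 9.07. The longest stretch without a peak was 126 kb, from 37780004 to 37906413.

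Runs were taken as 5 or more neighbouring peaks with folds under 10 and centres less than 20 kb apart, and cluster B held 2. A run of 12 weak peaks lay in cluster B from 36271863 to 36306288, within 34.4 kb. Their folds were 1.66 to 2.25, their pileups 75 to 98 and their backgrounds 40.1 to 49.6 fragments, which is 6.35 to 7.86 times the lowest background of the list. All 12 had −log10 q-values of at most 10.4. They filled most of the bin with most peaks of the cluster, from 36.2 Mb, with 11 peaks. Without this run, cluster B had 42 peaks or 23.3 per Mb, a median fold of 13.5, and 69.0% of its peaks had a fold of at least 10. A second run of 6 peaks, from 37270055 to 37313025, had folds of 1.89 to 5.04 over backgrounds of 14.5 to 36.0. Its median background was 17.4, near the 17.5 of all peaks of cluster B, whereas that of the first run was raised, at 45.3. The part of the background in the calls of the first run was not tested.

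Cluster C was short and held few weak peaks. Its 21 strong peaks had folds from 10.8 to 17.8, with quartiles of 13.7 and 16.2. The first 15 peaks of the window all passed 10, and of the 26 peaks 5 did not. Neighbouring peaks were a median of 26.4 kb apart (18.8 to 37.5), with quartiles of 18.7 and 42.6 kb, a smallest distance of 5.11 kb and a largest of 74.5 kb. The longest stretch without a peak, from 43827732 to 43901402, was 73.7 kb. Each of its 8 bins of 100 kb held a peak, and the bin from 44 Mb held 5. Pileups of the strong peaks were moderate, from 98 to 391 fragments.

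The highest −log10 q-values of cluster C were 321 at chr19:44164578-44165420, 265 at chr19:44112952-44113829 and 242 at chr19:44051272-44052368. The highest folds were 17.8 at chr19:44356324-44357031, 17.3 at the last of those and 16.5 at chr19:44259558-44260411. The peak at 44356324 reached its fold with a pileup of 153 over a background of 7.67, the former well under the 391 of the peak with the highest q-value. The widest peak, 1313 bp at chr19:44002435-44003747, had a fold of 15.1. The 5 weaker peaks had pileups of at most 54.

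**Figure D5:**
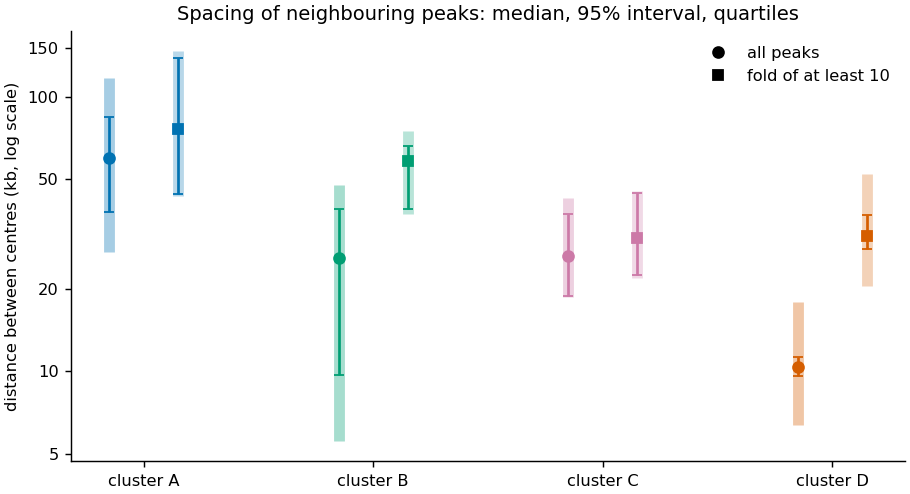
Distance between the centres of neighbouring peaks in kb (y axis, log scale) in each cluster, for all peaks (circles) and for peaks with a fold of at least 10 (squares). Points are medians, whiskers 95% order-statistic intervals and pale bars quartiles. All peaks of cluster D lie closest, with a median of 10.4 kb, and its strong peaks lie 31.1 kb apart, about as far as the 30.6 kb of cluster C.

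Strong peaks mostly stood alone in clusters A to C. No other peak lay within 10 kb of 74 of the 80 peaks with a fold of at least 10, or 92.5% (84.6% to 96.5%). This share was 52.4% in cluster D (43.7% to 60.9%) and 47.5% in the rest of chromosome 19 (43.0% to 52.1%). The nearest peak of any strength was a median of 27.3 kb away in clusters A to C (22.7 to 36.4), against 10.7 kb in cluster D (8.78 to 12.6) and 9.65 kb in the rest (8.97 to 10.6). Both measures depend on the density of all peaks, which was 18.0 per Mb in clusters A to C, 71.0 in cluster D and 57.8 in the rest. The part of this density in them was not tested. Few weaker peaks were called close beside a strong one. Only 2 of 48 in clusters A to C (4.17%, 1.15% to 14.0%) and 7 of 351 in cluster D (1.99%, 0.969% to 4.06%) lay within 5 kb of one. The rest of chromosome 19, with 2.87% (2.24% to 3.68%), lay within both intervals. A strong peak can raise the local background of a weaker one beside it, and the part of this in these low shares was not tested.

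Peaks with a fold of at least 10 were narrower in clusters A to C, with a median width of 867 bp (810 to 922), than in the rest, with 959 bp (934 to 990), or in cluster D, with 1065 bp (1030 to 1110). Taken singly, only the interval of cluster A, at 796 bp (682 to 902), excluded the median of the rest. Those of cluster B, at 922 bp (850 to 1124), and cluster C, at 843 bp (776 to 972), included it. The intervals of clusters A and C overlap, so the difference is not shown to lie in cluster A alone. Over all peaks the median width was 663 bp in cluster A (611 to 782), 829 bp in cluster B (674 to 910), 801 bp in cluster C (708 to 944), 634 bp in cluster D (578 to 706) and 598 bp in the rest (576 to 616). Peaks of at least 1000 bp made up 10.4% of cluster A (4.53% to 22.2%), 25.9% of cluster B (16.1% to 38.9%), 19.2% of cluster C (8.51% to 37.9%) and 27.0% of cluster D (23.3% to 31.2%), beside 19.4% of the rest. The excess of cluster D over the rest was 7.69 points (3.59 to 12.1), and the differences of clusters A, B and C from the rest had intervals that included 0.

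At widths of 600 bp and over, peaks of clusters A to C had the higher fold, though not throughout the higher pileup. From 600 to under 1000 bp, the median fold was 15.4 for their 66 peaks (14.0 to 16.1), 7.37 for the 123 of cluster D (5.39 to 9.14) and 7.30 for the 789 of the rest (6.95 to 7.69). At 1000 bp and over it was 13.7 (13.4 to 15.1), 11.4 (10.4 to 12) and 9.21 (8.59 to 9.63). From 300 to under 600 bp it was 3.28 in clusters A to C, and its interval (2.40 to 5.19) included both the 2.87 of cluster D and the 4.24 of the rest. The higher fold at a given width was therefore seen from 600 bp up. The median pileup from 600 to under 1000 bp was 205.5 in clusters A to C (173 to 249), 192 in cluster D (119 to 250) and 126 in the rest (115 to 135). At 1000 bp and over it was 262.5 (200 to 312), 487 (392 to 569) and 239 (214 to 256). By pileup, clusters A to C thus did not exceed cluster D in either class, and their interval overlapped that of the rest at 1000 bp and over.

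The median −log10 q-value was 126 in cluster A (33.1 to 214), 105 in cluster B (14.6 to 161), 139 in cluster C (90.2 to 168), 22.6 in cluster D (14.5 to 31.9) and 26.7 in the rest (24.7 to 29.3). It is a measure of certainty that grows with depth and pileup. Values under 5 were found for 24.9% of cluster D (21.3% to 29.0%) against 12.6% of the rest (11.4% to 14.0%), and for 12.5% of clusters A to C (7.84% to 19.3%). Cluster D thus had a larger share of such weak calls than the rest, beside a highest −log10 q-value of 1497.

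Cluster D differed from the other clusters in its upper end. A pileup of at least 1000 fragments was reached by 34 of its 477 peaks, or 7.13% (5.15% to 9.80%), by 11 of the 2589 of the rest of chromosome 19, or 0.425% (0.237% to 0.759%), and by 0 of the 128 of clusters A to C, which allows a share of up to 2.34% (3 counts of the total), or 2.91% by the Wilson interval. The difference of cluster D from the rest was 6.70 points (4.69 to 9.38). That of clusters A to C from cluster D was −7.13 points (−9.80 to −3.60). Taken singly, the interval of this difference excluded 0 for cluster B (−9.80 to −0.197). It included 0 for cluster A (−9.80 to 0.543) and cluster C (−9.80 to 5.90). Cluster D held 0.978% of all peaks of the list and 22.5% of the 151 with such a pileup. These 34 peaks lay from 52189337 to 58576136, had a median width of 1273 bp and a median fold of 12.3, and 28 of them had a fold of at least 10.

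The highest −log10 q-values of cluster D were 1497 at chr19:55338779-55340127, with a pileup of 2299, 1443 at chr19:58543682-58545012, with 2116, and 1408 at chr19:58380330-58381716, with 2011. Their folds were 11.1, 12 and 12.6, below those of the top peaks of clusters A to C, over backgrounds of 206, 176 and 159 fragments. The highest pileup, 2342, at chr19:54189260-54191373, stood over a background of 324 and had a fold of only 7.21. The highest folds of the cluster were 18.0 at chr19:57527148-57527947, 17.4 at chr19:56393187-56393940 and 17.2 at chr19:57632838-57633636, on widths of 754 to 800 bp. The widest peak, 2781 bp at chr19:56837162-56839942, had a fold of 4.25 and ended where the longest stretch of the cluster without a peak began, 126 kb up to 56966382.

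High pileups began before the window. From 45 Mb to the start of cluster D, peaks with a fold of at least 10 had a median pileup of 447 (340 to 557), whose interval overlaps that of cluster D, and a median background of 32.6 (25.8 to 40.5). In that stretch 8 of 542 peaks had a pileup of at least 1000, the highest being 1255. Peaks with a fold under 10 had a median fold of 4.87 there (4.51 to 5.32) and of 3.01 in cluster D (2.89 to 3.17). Among peaks with a fold of at least 10, both pileup and background were higher in cluster D than in clusters A to C, whereas over all peaks the median pileup was lower in cluster D. The number of DNA copies was not measured, so more DNA and more open DNA cannot be told apart for these strong peaks.

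Cluster D was not uniform along its length. From 51.9 to 53 Mb it had only 39.1 peaks per Mb, a median fold of 12.1 (7.94 to 13.4) and 27 of 43 peaks, or 62.8%, with a fold of at least 10 (47.9% to 75.6%). From 54 to 55 Mb it held 101 peaks with a median fold of 2.89 (2.76 to 3.09), and only 8 of them, or 7.92% (4.07% to 14.9%), had a fold of at least 10. From 56 to 57 Mb the count was 10 of 50, or 20.0% (11.2% to 33.0%). The bin with most peaks, 15, began at 55.1 Mb. From 57 to 58 Mb, 27 of 76 peaks or 35.5% had a fold of at least 10 (25.7% to 46.7%), and from 58 Mb to the end of the window 21 of 50, or 42.0% (29.4% to 55.8%). Without the stretch from 54 to 56 Mb, the share of strong peaks in cluster D was 36.1%.

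Strong peaks also differed in height within cluster D. Those from 51.9 to 54 Mb had a median pileup of 342 (276 to 431), those from 54 to 56 Mb of 887 (563 to 1158), those from 56 to 57 Mb of 851 (496 to 1357), those from 57 to 58 Mb of 498 (425 to 719) and those from 58 Mb on of 1087 (680 to 1438). Their backgrounds went the same way, with 25.3, 73.2, 50.3, 37.3 and 85.3 fragments. The first stretch therefore lay close to the rest of chromosome 19, with 301, and the interval of the last lay above that of the first.

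Peak numbers changed across some bounds of the windows and not across others. Near the start of cluster A, 2 peaks lay within 100 kb inside and 5 within 100 kb outside. At its end the last peak inside had a fold of 2.60, and the next peak outside followed 725 kb past the bound. Near the start of cluster C, 1 peak lay inside and 8 outside, and near its end 4 inside and 8 outside. Near the start of cluster B, 11 lay inside and 6 outside, and near its end 4 on each side. Near the start of cluster D, 3 lay inside and 1 outside, and its end is that of the chromosome, with 11 peaks in the last 100 kb of the window.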

How the data were processed

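ATAC-seq libraries of HEK293 cells were made from 50000 cells each with 8 PCR cycles. According to the methods and the submitters' processing notes, reads were trimmed (Trimmomatic), aligned to GRCh38.p10 (Bowtie2), marked for duplicates (Picard) and called in paired-end mode (MACS2). The authors deposited 1 peak list, called on the merged samples, giving each summit's fold over background (a linear ratio), the −log10 of the p-value and q-value, and a score that is the −log10 q-value times 10. The values are pooled over 4 libraries, so the depth of each library is unknown beyond the stated minimum of 20000000 paired-end reads, and no test between groups could be made.

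Peaks were assigned by their centre. Densities have exact Poisson intervals, density ratios exact conditional intervals, shares Wilson and their differences Newcombe intervals, and medians order-statistic intervals, all at 95%. The rest of chromosome 19 was measured to the end of its last peak. Pileup and background were recovered with a Poisson distribution, a pseudocount of 1 and a misfit of at most 0.001, tested on simulated data. Python 3.11.15, numpy 2.4.6, pandas 2.3.3, scipy 1.17.1 and matplotlib 3.10.9 were used. The rule for named peaks took, in each cluster, the 3 of highest −log10 q-value, the 3 of highest fold, the widest, the longest empty stretch and the fullest 100 kb bin. Other peaks and the 2 runs of cluster B were chosen after their values were seen. The windows and all comparisons were chosen with earlier results of these data known. Named genes, cell type markers, gene starts, GC content and motifs were planned and not analysed here, because an annotation and sequence of GRCh38 were not used here.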

Additional observations from a re-analysis of the deposited data

How the results depend on the processing

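Of 198 alternative values computed for the clusters, 25 moved outside the interval of the value in the text and 173 were not counted as moved. The 173 include the number of peaks in the clusters, which has no interval. This number was 605 in the text, 470 with −log10 q-values of 5 or more, 568 in shrunk windows and 579 after merging. No cluster's peak density ratio to the rest of chromosome 19 changed sides of 1. The first 5 alternatives were membership by any overlap, merging of peaks within 1000 bp, a −log10 q-value of 5 or more, windows shrunk by 100 kb and a rest without its centromeric stretch. Merging and the centromeric stretch moved no value outside its interval. Overlap returned the same 605 members, so its 45 values could not move and are no check of the results. Members with a fold of at least 10 had −log10 q-values of 52.6 or more, so the bound of 5 could not change their density. The alternatives beyond the first 5 were chosen after the data were seen. In cluster B, the share of peaks with a fold of at least 10 moved to 69.2% in shrunk windows and to 69.0% without its first run of weak peaks. In cluster D, with −log10 q-values of 5 or more, the density was 53.3 per Mb, its ratio to the rest 1.06, the median spacing 12.9 kb, the median width 819 bp, the median fold 6.21, the median −log10 q-value 74.7, the median pileup 178, the median background 25.7, the share of peaks of at least 1000 bp 36.0% and that of a fold of at least 10 35.2%. Without 54 to 56 Mb, cluster D had 59.4 peaks per Mb, a ratio of 1.03, a spacing of 12.1 kb, a width of 751 bp, a fold of 5.38, a −log10 q-value of 35.6, a background of 17.9 and a share of 36.1%. With a bound of 8, 31.2% of cluster D was strong, with 12 it was 18.2% at 13 per Mb, and by a pileup of at least 100 it was 46.3% at 32.9 per Mb. Fewer peaks enter each of these settings by construction, except where the bound or the measure of strength was changed.

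No paired analysis was possible because every value is pooled over the libraries, and for the same reason no library was left out in turn. The planned checks against gene starts, GC content and motifs were not run, as an annotation and sequence of GRCh38 were not used here. Pooled calls cannot show whether a peak was present in all 4 libraries or with both TRAFTACs, library depth is known only as a stated minimum, and a peak under the caller's threshold is not shown to be closed chromatin.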
